A study of Homo sapiens with 18 samples.

Results

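Folate uptake and the making, salvage and breakdown of thymidylate were followed through 8 genes, *SLC19A1*, *FPGS*, *TYMS*, *DUT*, *TK1*, *TYMP*, *UPP1* and *DPYD*, chosen by name from the 36204 gene names of the array. These genes, and the gene lists set beside them below, were chosen with earlier results of these data known. All 8 were on the array, with 13 probes between them, and the probe with the highest mean intensity over the 18 arrays was used for each name. The 8 probes used were well above background on all 18 arrays. The samples were HT29, a line derived from a human colorectal adenocarcinoma, and HTOXAR3, a subline of HT29 that became resistant to oxaliplatin (OXA) while being kept in rising doses of the drug. Each line had 3 biological replicates of 3 conditions, untreated, OXA and OXA plus Curcumin, the treatments lasting 24 h. The study's results describe the cells labelled untreated as given vehicle, and its methods describe them as without treatment. HT29 received OXA at 10 µM and HTOXAR3 at 30 µM, both alone and with Curcumin at 10 µM, so the dose of OXA and the line cannot be told apart where treated groups of the lines are compared. HTOXAR3 is a single resistant subline of a single parental line, and cells given Curcumin alone were not analysed here.

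Dividing cells need thymidylate for DNA. Thymidylate synthase (*TYMS*) makes it from deoxyuridine monophosphate with a methyl group carried by reduced folate, which enters the cell through the reduced folate carrier (*SLC19A1*) and is kept there as polyglutamates made by folylpolyglutamate synthase (*FPGS*). The dUTPase (*DUT*) supplies the deoxyuridine monophosphate and keeps uracil out of DNA, thymidine kinase (*TK1*) salvages thymidine, and thymidine phosphorylase (*TYMP*), uridine phosphorylase (*UPP1*) and dihydropyrimidine dehydrogenase (*DPYD*) turn over pyrimidine nucleosides and bases. Several of these enzymes act on fluorouracil or are its target, and OXA is commonly combined with that drug in colorectal cancer. Fluorouracil was not among the treatments.

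All levels below are log2 intensities after background correction and quantile normalization, and all changes are differences of group means on that scale, given with the standard error (SE) of the fit. A gene was called where limma gave a p adjusted by the Benjamini-Yekutieli (BY) method below 0.05 over all gene names and the group means differed by more than 1.2-fold. The share of spots well above background was 52.4% to 63.6% per array and lowest in untreated HTOXAR3 replicate 2. Of 10 markers of colorectal epithelium, 9 were well above background on all 18 arrays (*CDX1*, *VIL1*, *EPCAM*, *KRT8*, *KRT18*, *KRT19*, *KRT20*, *LGALS4* and *CDH1*). Of 5 fibroblast markers 0 were, and *COL1A2* and *COL3A1* were not well above background on any array, whereas 3 of 4 leukocyte markers (*PTPRC*, *CD79A* and *CD14*) and 2 of 3 endothelial markers (*VWF* and *CDH5*) were. The arrays lay on 3 slides. Each of the 36 changes called among the 8 genes had the same direction within every slide that held the groups compared. With arrays of whole cultures, fewer cells of a kind and less RNA per cell cannot be told apart.

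**Figure D1:**
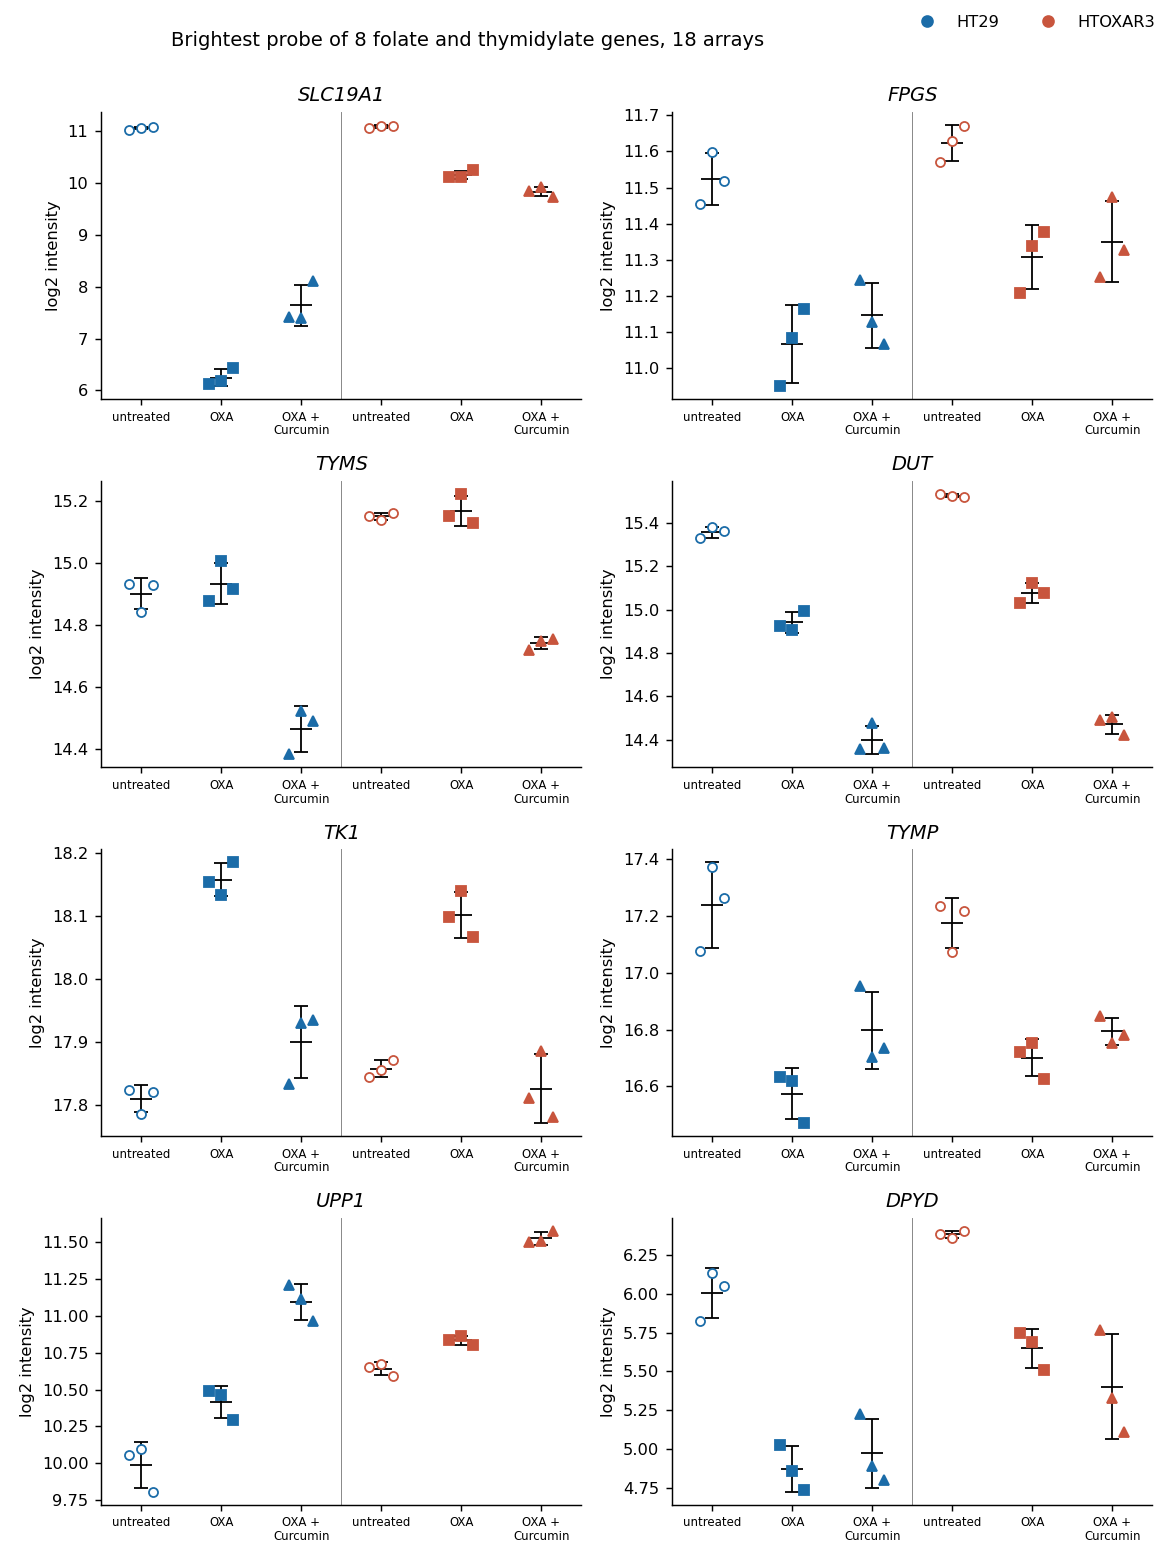
Log2 intensity of the probe used for each of the 8 genes (y axes, each with its own range) in the 3 replicates of 6 groups (x axis), HT29 in blue and HTOXAR3 in red, with black bars for the mean ± SD. *SLC19A1* spans from 6.13 in HT29 after OXA to 11.11 in untreated HTOXAR3, while *TYMS*, *TK1*, *TYMP* and *FPGS* each stay within less than 1 log2 unit.

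Without drug, 1 of the 8 genes was called between the resistant and the parental line. *UPP1*, which cleaves uridine to uracil, was higher in HTOXAR3 by 0.65 (SE 0.08, BY adjusted p = 5.86e-04). Its 3 values were 10.06, 10.10 and 9.81 in untreated HT29 and 10.65, 10.68 and 10.59 in untreated HTOXAR3, and the groups did not overlap. The call was lost in a fit of only the 2 untreated groups, with the same difference of 0.65 (SE 0.10, adjusted p = 0.143). Over all gene names 11.6% were called in this comparison, and 1 of 8 is near that share. *TYMS* had the next lowest p, at 14.93, 14.84 and 14.93 in HT29 and 15.15, 15.14 and 15.16 in HTOXAR3. These groups did not overlap either, but the difference of 0.25 (SE 0.06) missed the threshold with an adjusted p of 0.0539 and was less than 1.2-fold. The *SLC19A1* levels of the untreated lines were 11.06 ± 0.02 and 11.10 ± 0.02 (SD, n = 3), a difference of 0.03 with a 95% interval from -0.28 to 0.35. For *FPGS*, *TYMP*, *TK1*, *DUT* and *DPYD* the differences ran from -0.06 to 0.38 (*DPYD*) and none was called, although the groups of *DPYD*, *DUT* and *TK1* did not overlap.

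After OXA, 7 of the 8 genes were called in HT29 and 4 in HTOXAR3, against 16% and 10.3% of all gene names. In HT29 *SLC19A1*, *DPYD*, *TYMP*, *FPGS* and *DUT* fell and *UPP1* and *TK1* rose, and in HTOXAR3 *SLC19A1*, *DPYD*, *TYMP* and *DUT* fell. After OXA plus Curcumin, 7 genes were called in HT29 and 6 in HTOXAR3, against 18.6% and 17.5% of all names. *TYMS*, which was not called after OXA alone, was then called lower in both lines, *TK1* was called in neither, and *FPGS* was called in HT29. The untreated arrays of a line serve as controls of both its responses. With each array left out, the counts after OXA were 6 to 7 in HT29 and 2 to 3 in HTOXAR3. Of all names, 12.8% to 14.6% and 7.26% to 7.94% were called in these fits. A fit of only the groups compared called 2 and 1 after OXA (3.85% and 1.73% of all names). After OXA plus Curcumin it called 3 and 3 (5.89% and 8.43%).

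**Figure D2:**
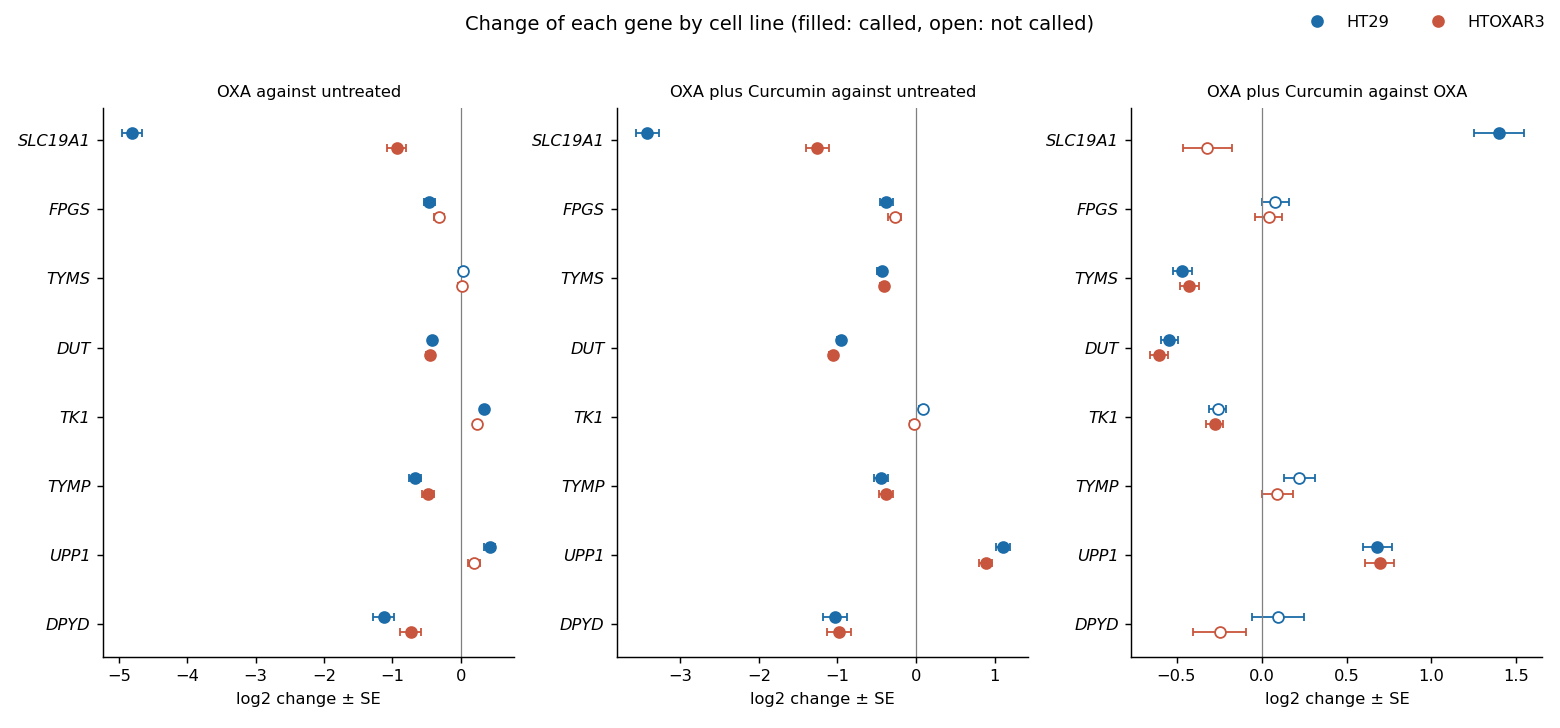
Log2 change (x axis) ± SE of each gene (y axis) in HT29 (blue) and HTOXAR3 (red) for OXA against untreated, OXA plus Curcumin against untreated and OXA plus Curcumin against OXA, with filled points for called changes and different x ranges in the 3 panels. *SLC19A1* lies at -4.81 in HT29 after OXA and at -0.94 in HTOXAR3, and the other 7 genes lie between -1.13 and 1.11 in all panels.

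The fall of the folate carrier was the largest change among the 8 genes. *SLC19A1* stood at 11.04, 11.06 and 11.08 in untreated HT29, at 6.13, 6.18 and 6.43 after OXA and at 7.43, 7.40 and 8.10 after OXA plus Curcumin. The treated and untreated arrays lay far apart, and replicate 3 of the combined treatment was the highest of its group. OXA lowered *SLC19A1* in HT29 by 28.1-fold (log2 change -4.81, SE 0.15, BY adjusted p = 5.73e-10), and OXA plus Curcumin lowered it less far (log2 change -3.42, SE 0.15, adjusted p = 1.16e-08). The size of the fall after OXA depended on the setting, the log2 change being -4.12 with a normexp offset of 50 and -3.72 with the mean of both probes, both called.

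In HTOXAR3 the carrier also fell, by less. Its values were 11.07, 11.11 and 11.11 untreated, 10.11, 10.11 and 10.25 after OXA and 9.85, 9.92 and 9.74 after OXA plus Curcumin. The 3 groups did not overlap. OXA lowered it by 1.92-fold (log2 change -0.94, SE 0.15, adjusted p = 3.91e-03) and OXA plus Curcumin by 2.39-fold (log2 change -1.26, SE 0.15, adjusted p = 1.43e-04).

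The response of *SLC19A1* therefore differed between the lines, and the difference itself was called for both treatments. The change in HTOXAR3 minus that in HT29 was 3.88 for OXA (SE 0.21, adjusted p = 1.65e-06, with values of 3.21 with a normexp offset of 50 and 2.89 with the mean of both probes) and 2.16 for OXA plus Curcumin (SE 0.21, adjusted p = 9.32e-04). *SLC19A1* was the single gene of the 8 called in each of these differences, in which 1.01% and 0.854% of all gene names were called. Within the slides that held all 4 groups, the difference was 3.91 and 3.72 for OXA and 2.42 and 1.70 for OXA plus Curcumin. The treated lines also differed in the dose of OXA, whose part in these differences cannot be told apart from that of the line.

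Adding Curcumin to OXA moved the carrier up in HT29. The rise was 1.40 (SE 0.15, adjusted p = 2.76e-04), or 2.63-fold, and *SLC19A1* remained below the untreated arrays. With the mean of both probes the rise was 0.81, also called, whereas a fit of only the groups compared gave 1.40 (SE 0.22) and no call (adjusted p = 0.471). In HTOXAR3 the change was -0.32 (SE 0.15), with a 95% interval from -0.63 to -0.0044 and an adjusted p of 1. The difference between the lines in adding Curcumin was -1.72 (SE 0.21, adjusted p = 0.0228), where 0.135% of all names were called and *SLC19A1* was again the single gene of the 8. That call was lost when any 1 of 8 arrays was left out, namely HT29 OXA replicate 1 or 2 or any of the 6 HTOXAR3 arrays treated with OXA or with OXA plus Curcumin, although the value stayed between -1.84 and -1.48, and in a fit of only the groups compared (adjusted p = 0.429).

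In the order of its group means, *SLC19A1* went from untreated HTOXAR3 (11.10) and untreated HT29 (11.06), which did not differ beyond their spread, through HTOXAR3 after OXA (10.16) and after OXA plus Curcumin (9.84), whose difference was not called, to HT29 after OXA plus Curcumin (7.64) and after OXA (6.25).

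**Figure D3:**
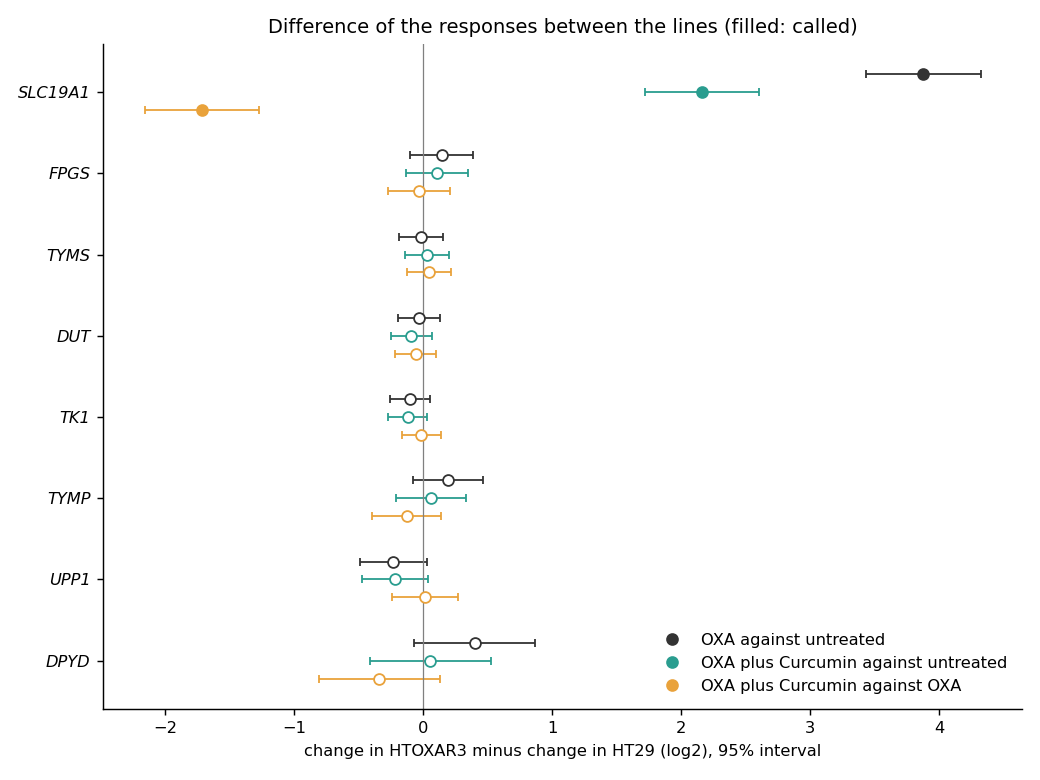
Change in HTOXAR3 minus change in HT29 (x axis, log2, with the 95% interval of the fit) for each of the 8 genes (y axis) and 3 contrasts, with filled points for called differences. The intervals of *SLC19A1* exclude 0 for all 3 contrasts, and the intervals of the other 7 genes all include 0.

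*SLC19A1* had a second probe, and its readings set how far these values can be taken. The brighter probe lies at the 3′ end of the transcript, at chr21:46935085-46935144 of GRCh37 on the minus strand. The other lies in the coding sequence, at chr21:46945751-46945810 on the same strand, and is shown because 2 of the results above, both on adding Curcumin, were not called with it:
SLC19A1 coding probe: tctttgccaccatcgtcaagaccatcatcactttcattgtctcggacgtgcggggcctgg
The coding probe read 8.81, 8.87 and 8.80 in untreated HT29, 6.39, 6.23 and 6.00 after OXA and 6.45, 6.27 and 6.56 after OXA plus Curcumin. The treated groups lay below the untreated group and overlapped each other. In HTOXAR3 it read 8.54, 8.65 and 8.52 untreated, 7.78, 7.79 and 7.97 after OXA and 7.50, 7.56 and 7.32 after OXA plus Curcumin, with no overlap.

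In a fit over all 50599 probes, the coding probe of *SLC19A1* was called lower after OXA in HT29 (-2.62, SE 0.10, BY adjusted p = 5.47e-09) and in HTOXAR3 (-0.72, SE 0.10, adjusted p = 2.51e-03). The same held after OXA plus Curcumin in HT29 (-2.40, SE 0.10, adjusted p = 1.54e-08) and in HTOXAR3 (-1.11, SE 0.10, adjusted p = 2.23e-05). The difference between the lines was called with this probe as well, at 1.90 for OXA (adjusted p = 5.05e-05) and 1.29 for OXA plus Curcumin (adjusted p = 4.41e-03). The rise on adding Curcumin in HT29 was not, at 0.22 (SE 0.10, adjusted p = 1), and neither was the difference between the lines in adding Curcumin, at -0.61 (SE 0.15, adjusted p = 1). The effect of Curcumin on the folate carrier in HT29 thus rests on the probe at the 3′ end. The array assigns the 2 probes to different transcript variants. From untreated HT29 to HT29 after OXA, the coding probe went from a mean of 8.83 to 6.21 and the other from 11.06 to 6.25. The coding probe thus spanned a narrower range.

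**Figure D4:**
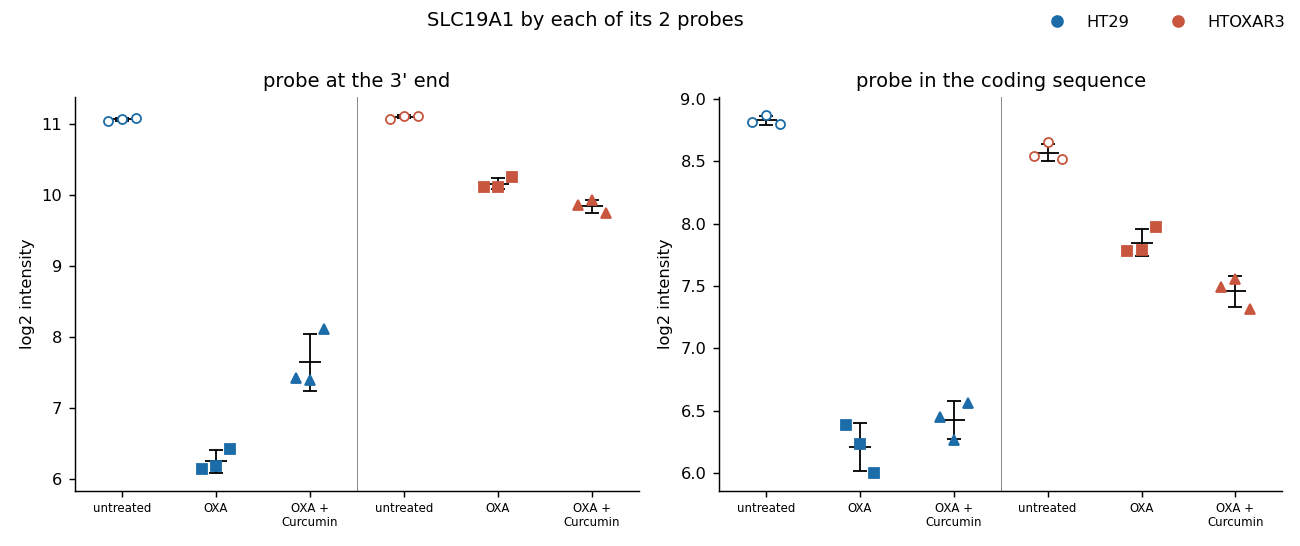
Log2 intensity (y axes) of the 2 probes of *SLC19A1* in the 3 replicates of each group (x axes), HT29 in blue and HTOXAR3 in red, with black bars for the mean ± SD. Both probes fall in HT29 after OXA, and HT29 after OXA plus Curcumin stands apart from HT29 after OXA with the probe at the 3′ end only.

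The gene names whose 6 group means went most closely with those of *SLC19A1*, of 17463 names well above background on all arrays, were *C7orf50* (Pearson r = 1.00), *THOP1* (0.999) and *NARFL* (0.998). After OXA in HT29 *C7orf50* changed by -3.95 and *THOP1* by -2.29, and in HTOXAR3 by -0.71 and -0.42. With 6 means that share their arrays, such values are a description only.

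Folylpolyglutamate synthase fell modestly in HT29. *FPGS* was 11.45, 11.60 and 11.52 untreated, 10.95, 11.08 and 11.16 after OXA and 11.24, 11.13 and 11.07 after OXA plus Curcumin. Both treated groups lay below the untreated group, by 0.46 (log2 change -0.46, SE 0.08, BY adjusted p = 5.71e-03) and by 0.38 (log2 change -0.38, SE 0.08, adjusted p = 0.0227). The second call was lost without any 1 of 4 arrays (replicates 2 and 3 of untreated HT29 and of the combined treatment), and neither call remained with the mean of the *FPGS* probes, although the dimmer probe alone was called for both treatments (-0.65 and -0.59). The averaged changes were -0.35 and -0.48 (SE 0.13 each), and OXA replicate 2 of HT29 has no value of the dimmer probe, so that its average is the brighter probe alone. In a fit of only the groups compared both calls were lost (adjusted p = 0.274 and 0.333).

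In HTOXAR3 *FPGS* went from 11.57 to 11.67 in the untreated arrays, 11.21 to 11.38 after OXA and 11.25 to 11.47 after OXA plus Curcumin. These groups did not overlap with the untreated group, but the changes of -0.32 and -0.27 (SE 0.08 each) were not called, with adjusted p = 0.123 and 0.212. The probe used lies at chr9:130575924-130575983 and a second probe at chr9:130575644-130575703, both on the plus strand. The second probe of *FPGS* was called lower in all 4 treated groups, by 0.65 and 0.59 in HT29 (log2 changes -0.65 and -0.59) and 0.39 and 0.39 in HTOXAR3 (log2 changes -0.39 and -0.39, adjusted p = 0.0394 and 0.0228). One array, HT29 OXA replicate 2, has no value for that probe because its spot carried an outlier flag. The difference between the lines was not called with either probe. *PRRC1* (r = 0.997), ENST00000450667 (0.996) and *RPL10A* (0.996) had the group means most like those of *FPGS*.

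Thymidylate synthase did not move with OXA and fell when Curcumin was added. *TYMS* was 14.93, 14.84 and 14.93 in untreated HT29, 14.88, 15.01 and 14.92 after OXA and 14.38, 14.52 and 14.49 after OXA plus Curcumin. The OXA arrays overlapped the untreated arrays, and the combined treatment lay below both. The HTOXAR3 values were 15.15, 15.14 and 15.16 untreated, 15.15, 15.22 and 15.13 after OXA and 14.72, 14.75 and 14.76 after OXA plus Curcumin, which gave the same picture.

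The change of *TYMS* after OXA was 0.03 in HT29 (95% interval -0.09 to 0.15) and 0.02 in HTOXAR3 (95% interval -0.10 to 0.14), both with an adjusted p of 1. Adding Curcumin changed it by -0.47 in HT29 (SE 0.06, BY adjusted p = 8.88e-04) and by -0.43 in HTOXAR3 (SE 0.06, adjusted p = 1.20e-03). In a fit of only the groups compared, neither these nor the calls of *TYMS* after the combined treatment remained (adjusted p from 0.0548 to 0.615). Of the 8 genes, 4 were called on adding Curcumin in each line (*SLC19A1*, *TYMS*, *UPP1* and *DUT* in HT29 and *TYMS*, *UPP1*, *TK1* and *DUT* in HTOXAR3), against 5.52% and 8.84% of all gene names. Against the untreated arrays the combined treatment lowered *TYMS* by 1.35-fold in HT29 (adjusted p = 3.36e-04) and 1.33-fold in HTOXAR3 (adjusted p = 6.38e-04). The lines differed in the effect of adding Curcumin by 0.04 (95% interval -0.13 to 0.21). The probe lies at chr18:673276-673335 on the plus strand. *PLAGL2* (r = 0.998), *SNRPE* (0.998) and *SLC27A5* (0.996) were most like *TYMS*.

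Beside it, 2 transcripts of the *TYMS* locus were measured by their own probes. After OXA alone in HT29, where *TYMS* changed by 0.03, *TYMSOS* (-0.48, SE 0.11) and *ENOSF1* (-0.51, SE 0.09) were both called lower, and in HTOXAR3 their changes of -0.33 and -0.37 were not called. *TYMSOS*, the opposite strand transcript of *TYMS*, was called lower on adding Curcumin by 0.62 in HT29 (log2 change -0.62, SE 0.11) and by 0.95 in HTOXAR3 (log2 change -0.95, SE 0.11). *ENOSF1*, the neighbouring gene that overlaps the end of *TYMS*, changed by -0.87 (SE 0.09) in HT29 and -0.78 (SE 0.09) in HTOXAR3 after OXA plus Curcumin, both called, and by -0.36 and -0.40 on adding Curcumin, neither called.

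The dUTPase fell in steps, with OXA and again with Curcumin. *DUT* was 15.33, 15.38 and 15.36 in untreated HT29, 14.92, 14.90 and 14.99 after OXA and 14.36, 14.48 and 14.36 after OXA plus Curcumin. The HTOXAR3 values were 15.53, 15.52 and 15.52 untreated, 15.03, 15.12 and 15.07 after OXA and 14.49, 14.50 and 14.42 after OXA plus Curcumin. In neither line did any of the 3 groups overlap.

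OXA lowered *DUT* by 0.42 in HT29 (log2 change -0.42, SE 0.05, BY adjusted p = 3.39e-04) and by 0.45 in HTOXAR3 (log2 change -0.45, SE 0.05, adjusted p = 3.55e-04). The further change with Curcumin was -0.54 (SE 0.05, adjusted p = 1.48e-04) and -0.60 (SE 0.05, adjusted p = 3.79e-05). In a fit of only the groups compared these 4 calls were lost (adjusted p from 0.0838 to 0.402), and those of the combined treatment against untreated were not. The whole change was -0.96 in HT29 and -1.05 in HTOXAR3, or 1.94-fold and 2.07-fold lower, and the difference of -0.09 between the lines had a 95% interval from -0.25 to 0.06.

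Both probes of *DUT* span an intron in the same part of the coding sequence, the brighter one within chr15:48633763-48634258 and the other within chr15:48633737-48634231 of GRCh37, on the plus strand. They share 33 bases and differ there at a single base, C23T counted from the 5′ end of the brighter probe, which is in capitals here to show that the pair reads almost the same stretch:
DUT brighter probe: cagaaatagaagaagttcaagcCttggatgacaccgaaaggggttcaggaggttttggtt
DUT other probe: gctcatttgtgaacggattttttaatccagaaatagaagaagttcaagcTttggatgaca
The other probe was called in the same 6 comparisons of *DUT*, with changes of -0.57 and -0.53 after OXA and -1.13 and -1.08 after OXA plus Curcumin in HT29 and HTOXAR3. *RAVER2* (r = 0.998), *KDELC2* (0.998) and *TFAM*, a factor for transcription of mitochondrial DNA (0.997), had the group means most like those of *DUT*.

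Thymidine kinase went the other way after OXA and returned with Curcumin. *TK1* was 17.82, 17.79 and 17.82 in untreated HT29, 18.15, 18.13 and 18.19 after OXA and 17.83, 17.93 and 17.93 after OXA plus Curcumin. The OXA arrays lay above the other 6. In HTOXAR3 *TK1* ran from 17.84 to 17.87 untreated, from 18.07 to 18.14 after OXA and from 17.78 to 17.89 after OXA plus Curcumin, again with the OXA arrays on top.

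The rise with OXA was called in HT29 (0.35, SE 0.05, BY adjusted p = 1.12e-03) and not in HTOXAR3, where the change of 0.24 (SE 0.05) had an adjusted p of 0.0317 but was 1.18-fold, under the fold limit. On adding Curcumin *TK1* was called lower in HTOXAR3 (-0.28, SE 0.05, adjusted p = 0.0153), and in HT29 the change of -0.26 had an adjusted p of 0.036 and was 1.196-fold, just under the limit. The lines did not differ beyond the error, with a difference of -0.10 for OXA (95% interval -0.26 to 0.05). With the processed signal scaled at the 75th percentile, neither of the 2 calls of *TK1* remained, so that after OXA in HT29 the split of the called genes was 1 higher and 5 lower in place of 2 higher and 5 lower. A fit of only the groups compared also called neither (adjusted p = 0.252 and 0.644). The call in HTOXAR3 was also lost without any 1 of 4 arrays (OXA replicates 1 and 2, OXA plus Curcumin replicates 1 and 3). The probe lies at chr17:76170193-76170252 on the minus strand, and the names most like *TK1* were A_24_P307486 (r = 0.995), *IFITM3* (0.994) and *MELK*, a kinase of dividing cells (0.991).

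The genes of DNA replication were looked at beside these 3, since *TYMS*, *DUT* and *TK1* are known to be expressed in S phase. Of 23 S phase genes, 4 rose and 4 fell after OXA in HT29 and 2 fell in HTOXAR3, that is 34.8% and 8.7% of the list, against 16% and 10.3% of all gene names. After OXA plus Curcumin 13 fell in HT29, and in HTOXAR3 11 fell and 1 rose (*CCNE1*), 56.5% and 52.2% of the list against 18.6% and 17.5% of all names. On adding Curcumin 13 fell in HT29 and 9 in HTOXAR3 (56.5% and 39.1%, against 5.52% and 8.84% of all names), with list medians of -0.37 and -0.30 against -0.02 and -0.02 for all gene names. Among them the helicase subunit *MCM7* changed by -0.59 and -0.65 and *MYBL2* by -0.70 and -0.73. The counts of S phase genes were not refitted under the alternatives. In a fit of only the groups compared, 0.0497% and 0.718% of all names were called on adding Curcumin in HT29 and HTOXAR3. For *GINS1*, 1 of the 23, the untreated HTOXAR3 arrays had an SD of 2.99, which widens its error in every comparison. The part that cell cycle phase has in the changes of *TYMS*, *DUT* and *TK1* was not tested.

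An E2F motif (TTTCCCGC, TTTCGCGC, TTTGCCGC or TTTGGCGC on either strand) was sought in windows from 250 bases before to 50 after a start site in RefSeq (GRCh38.p14). At least 1 window each of *DUT*, *TYMS* and *SLC19A1* held a match, that is 3 of the 8 genes, against 3.99% of 27305 genes. Of all 35116 windows 3.31% held a match, a share by window that the count by gene cannot be set against. The upstream stretches with the matches are shown because E2F factors are known to act on S phase genes, with the matched letters in capitals and each read in the direction of its gene:
DUT, chr15:48332115-48332196, plus strand: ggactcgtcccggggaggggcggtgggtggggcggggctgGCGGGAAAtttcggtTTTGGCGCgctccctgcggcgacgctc
TYMS, chr18:657574-657652, plus strand: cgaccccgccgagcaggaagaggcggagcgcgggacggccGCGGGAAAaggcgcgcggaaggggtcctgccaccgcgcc
SLC19A1, chr21:45541908-45541995, minus strand: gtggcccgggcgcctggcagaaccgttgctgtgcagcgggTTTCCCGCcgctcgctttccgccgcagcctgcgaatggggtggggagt
The *DUT* window that matched is 1 of 4 for that gene and the *SLC19A1* window 1 of 4. A gene with more windows has more chances of a match, and the shares by gene were not adjusted for this. The letters of the interferon-stimulated response element (GAAANNGAA on either strand) occurred in 1 window of *SLC19A1* and in none of the other 7 genes, against 9.86% of all genes. A match of letters is not a measure of binding.

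Thymidine phosphorylase fell with OXA in both lines. *TYMP* was 17.08, 17.37 and 17.26 in untreated HT29, 16.63, 16.62 and 16.47 after OXA and 16.95, 16.70 and 16.74 after OXA plus Curcumin. In HTOXAR3 it was 17.24, 17.07 and 17.22 untreated, 16.72, 16.75 and 16.63 after OXA and 16.85, 16.75 and 16.78 after OXA plus Curcumin. All treated arrays lay below the untreated arrays of their line.

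*TYMP* changed after OXA by -0.66 in HT29 (SE 0.09, BY adjusted p = 5.55e-04) and by -0.47 in HTOXAR3 (SE 0.09, adjusted p = 0.0156), and after OXA plus Curcumin by -0.44 (SE 0.09, adjusted p = 0.0156) and -0.38 (SE 0.09, adjusted p = 0.0486). The last call was lost without any 1 of the 6 arrays, under the replicate block, with slide as a block and with the mean of all probes. The call after OXA in HTOXAR3 was lost without any 1 of 4 arrays (replicates 1 and 3 of the untreated and OXA groups), and that after OXA plus Curcumin in HT29 without any 1 of 4 (replicates 2 and 3 of both groups). None of the 4 calls remained in a fit of only the groups compared (adjusted p from 0.140 to 0.538). Adding Curcumin was not called in either line, at 0.22 and 0.09. The probe lies at chr22:50964185-50964244 on the minus strand, and *ZC3HAV1L*, *MAML1* and ENST00000594169 were most like *TYMP* (r = 0.998 each).

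Uridine phosphorylase was the gene called higher in both lines after OXA plus Curcumin. *UPP1* went from the untreated values given above to 10.49, 10.46 and 10.29 in HT29 after OXA and 11.21, 11.11 and 10.96 after OXA plus Curcumin. In HTOXAR3 it reached 10.84, 10.86 and 10.80 after OXA and 11.50, 11.51 and 11.58 after OXA plus Curcumin. The groups of each line did not overlap and stood in the order untreated, OXA, OXA plus Curcumin.

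Adding Curcumin raised *UPP1* by 0.68 in HT29 (SE 0.08, BY adjusted p = 1.25e-03) and by 0.69 in HTOXAR3 (SE 0.08, adjusted p = 6.55e-04), and the difference of 0.01 between the lines had a 95% interval from -0.24 to 0.27. After OXA the rise of 0.43 in HT29 was called (SE 0.08, adjusted p = 0.0166), though not without untreated replicate 3, OXA replicate 1 or OXA replicate 2, and the change of 0.19 in HTOXAR3 was not (adjusted p of 1). Against the untreated arrays the combined treatment raised it by 2.15-fold in HT29 (adjusted p = 2.31e-06) and 1.85-fold in HTOXAR3 (adjusted p = 2.24e-05). These calls remained in a fit of only the groups compared, whereas the rise after OXA in HT29 (adjusted p = 0.665) and those on adding Curcumin (0.448 and 0.0585) lost theirs.

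The probe used for *UPP1* crosses at least 1 splice junction within chr7:48134390-48146494 and a second probe within chr7:48141567-48142940, both on the plus strand. The second probe was called in the same comparisons, with changes of 0.62 between the untreated lines, 0.55 and 0.70 on adding Curcumin and 0.92 and 0.88 after OXA plus Curcumin in HT29 and HTOXAR3. The names most like *UPP1* were *NEU1*, a lysosomal sialidase (r = 0.995), *CTSL*, a lysosomal protease (0.995), and A_19_P00325768 (0.994). On adding Curcumin *NEU1* changed by 0.83 and 0.84 and *CTSL* by 0.74 and 0.91.

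Dihydropyrimidine dehydrogenase, which starts the breakdown of uracil, fell with OXA. *DPYD* was 5.83, 6.13 and 6.05 in untreated HT29, 5.03, 4.86 and 4.73 after OXA and 5.22, 4.89 and 4.80 after OXA plus Curcumin. In HTOXAR3 it was 6.38, 6.36 and 6.40 untreated, 5.75, 5.69 and 5.51 after OXA and 5.77, 5.33 and 5.11 after OXA plus Curcumin, the last being the widest of its groups. The treated arrays of both lines lay below the untreated arrays and overlapped each other. Those of HT29 lay near the floor. Readings of another *DPYD* probe at 4.71 (HT29 OXA plus Curcumin replicate 3) and 4.76 (untreated HTOXAR3 replicate 3) were not flagged well above background.

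*DPYD* changed after OXA by -1.13 in HT29 (SE 0.15, BY adjusted p = 6.99e-04) and by -0.73 in HTOXAR3 (SE 0.15, adjusted p = 0.0379), and after OXA plus Curcumin by -1.03 (adjusted p = 1.31e-03) and -0.98 (adjusted p = 2.26e-03). The size depends on the offset, which the methods do not state: with an offset of 50 these 4 changes were -0.53, -0.41, -0.49 and -0.52, all still called. The call after OXA in HTOXAR3 was lost without any 1 of its 6 arrays, and with slide as a block. A fit of only the groups compared called the change after OXA in HT29 alone (adjusted p of the others from 0.0727 to 0.155). Adding Curcumin was not called in either line (0.10 and -0.25). The probe lies at chr1:97543900-97543959 and a second probe, which the array assigns to another transcript variant, at chr1:98186233-98186292, both on the minus strand. The second probe of *DPYD* was well above background on 11 of the 18 arrays and on 1 of 3 in each untreated group, so it could not show a fall. Averaged with it, *DPYD* kept its call after OXA in HT29 and lost the other 3. *PGP* (r = 0.999) and *FLJ44477* (0.998) were among the names most like *DPYD*.

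Other genes of folate and pyrimidine metabolism were followed through a list of 61, all on the array. Between the untreated lines 9 were called higher and 10 lower in HTOXAR3, 31.1% of the list against 11.6% of all gene names. *ALDH1L1*, which oxidizes formyl folate, was higher by 2.77 (SE 0.12, BY adjusted p = 9.23e-09), the mitochondrial deoxynucleotidase *NT5M* by 1.63 (SE 0.15) and *GGH*, the hydrolase that removes glutamates from folate, by 1.08 (SE 0.08). The glycine cleavage subunit *AMT* (-1.38, SE 0.12), the folate receptor *FOLR1* (-0.83, SE 0.12) and the mitochondrial folate carrier *SLC25A32* (-0.64, SE 0.05) were the most lowered in HTOXAR3.

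After OXA, 7 of the 61 rose and 15 fell in HT29, and 3 rose and 5 fell in HTOXAR3. These are 36.1% and 13.1% of the list, against 16% and 10.3% of all gene names, and the count in HTOXAR3 dropped from 8 to between 4 and 6 when any 1 array of the comparison was left out (6.56% to 9.84%, against 7.26% to 7.94% of all names in the same fits). Cytidine deaminase (*CDA*) rose the most in both lines, by 1.24 (SE 0.08, BY adjusted p = 3.67e-07) and 0.65 (SE 0.08, adjusted p = 3.92e-04), followed by *AMT* (0.96 and 0.55) and then by *FOLR1* in HT29 (0.82) and *GGH* in HTOXAR3 (0.39). Among the largest falls were those of *UCKL1* (-1.18) and the thymidylate kinase *DTYMK* (-0.90) in HT29 and of *NT5M* (-0.78) in HTOXAR3.

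After OXA plus Curcumin most of the called genes of the list were lower in both lines, 30 lower and 4 higher in HT29 and 22 lower and 3 higher in HTOXAR3. These are 55.7% and 41% of the list, against 18.6% and 17.5% of all gene names. The list medians were -0.36 and -0.21, against -0.03 and -0.01 for all gene names. Of the 61, 24 were called in both lines and all 24 in the same direction, 39.3% against 13% of all gene names, of which 99.6% had the same direction in both lines. Among the 21 folate cycle genes, 13 were lower in HT29 and 10 in HTOXAR3, and *AMT* was the single gene called higher in each (0.67 and 0.51). Among the 14 genes of thymidylate and deoxynucleotide supply, 7 and 6 were lower and 0 higher.

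The largest falls after OXA plus Curcumin were of *NT5M* (-1.46), *UCKL1* (-1.17) and *TYMSOS* (-1.11) in HT29 and of *ALDH1L1* (-1.86), *NT5M* (-1.71) and *TYMSOS* (-1.28) in HTOXAR3. The largest rises were of *CDA* (1.70), *FOLR1* (0.98) and *AMT* (0.67) in HT29 and of *CDA* (0.83), *AMT* (0.51) and *UCK1* (0.37) in HTOXAR3.

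**Figure D5:**
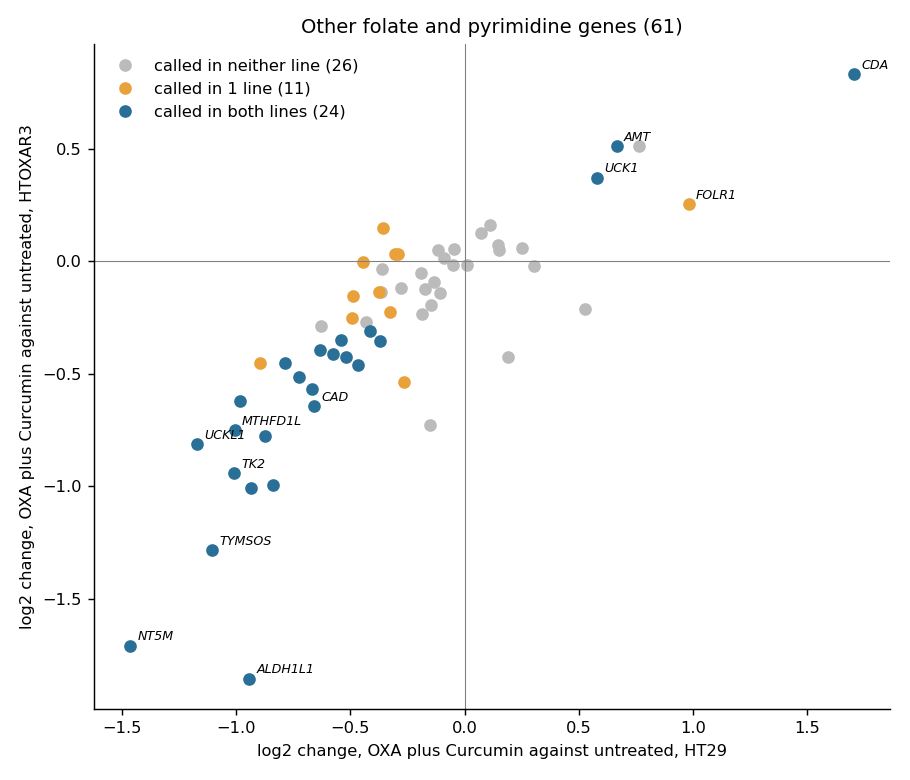
Log2 change after OXA plus Curcumin against untreated in HT29 (x axis) and HTOXAR3 (y axis) for the 61 other folate and pyrimidine genes, coloured by the number of lines in which a gene was called. The 24 genes called in both lines lie in the lower left, apart from *CDA*, *AMT* and *UCK1* in the upper right.

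On adding Curcumin 16 of the 61 fell and 2 rose in HT29, and 14 fell and 0 rose in HTOXAR3, that is 29.5% and 23% against 5.52% and 8.84% of all gene names. The count of 18 in HT29 dropped to 8 without OXA replicate 3, 9 without OXA replicate 2 and 11 without OXA plus Curcumin replicate 1 or 3, and the count of 14 in HTOXAR3 dropped to 9 without OXA plus Curcumin replicate 3. With each array left out in turn, 13.1% to 27.9% of the list was called in HT29 against 3.34% to 4.41% of all names, and 14.8% to 21.3% in HTOXAR3 against 5.45% to 6.75%. *MTHFD1*, a folate enzyme with several activities, changed by -0.72 and -0.61 (SE 0.06 each), and *CAD*, which starts pyrimidine synthesis, by -0.69 and -0.61 (SE 0.07 each). The larger of the rises in HT29 was that of *CDA* (0.47). The other largest falls were of *TYMSOS* in HT29 (-0.62) and of *ALDH1L1* (-1.34), *TYMSOS* (-0.95) and *NT5M* (-0.93) in HTOXAR3.

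The difference between the responses of the lines was called in 2 of the 61 genes for OXA, 1 for OXA plus Curcumin and 1 for adding Curcumin, that is 3.28%, 1.64% and 1.64% against 1.01%, 0.854% and 0.135% of all gene names. *DTYMK* changed by -0.90 after OXA in HT29 and -0.09 in HTOXAR3, a difference of 0.81 (SE 0.08, BY adjusted p = 2.80e-04). *MTHFD2L*, the other gene for OXA, was not well above background on all arrays compared.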

How the data were processed

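The 18 Agilent human arrays, of 1 colour, carry 62976 spots each, 58717 of them not controls. The sample labels gave the groups and the replicate numbers and call the replicates biological. Total RNA was reverse transcribed and amplified to cRNA labelled with Cy3. The authors deposited the scanner output of Feature Extraction 10.7.3.1, with linear mean intensities of the spots and median intensities of the background around them, not normalized between arrays. The deposited output also holds a processed intensity, background-subtracted and detrended within the array, used as an alternative, and flags for outliers and for spots well above background. The authors' own normalized table was not used, since its rows carry no gene names.

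After the methods of the study, the background was corrected with normexp (offset 0, which the methods do not state), arrays were quantile normalized, and the log2 values of all 18 arrays were fitted with 1 term for each of the 6 groups (limma 3.58.1, R 4.3.3). Controls were dropped after normexp, flagged outlier spots were treated as missing, and repeat spots of a probe were averaged. The 50599 probes were reduced to 36204 names by the highest mean. Tests were two-sided with 12 residual degrees of freedom before moderation, and p-values were adjusted by BY. The number of arrays limits the precision. The model was tested on simulated data.

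The 8 genes, the list of 61, the S phase list and the markers were chosen with earlier results of these data known. The genes named were all 8 genes, the 3 largest rises and falls of the list per comparison, counting called genes measured well above background on each array compared, and the 3 names most like each called gene. Some genes that this rule names are not reported here. *ENOSF1*, *MCM7*, *MYBL2*, *CCNE1*, *GINS1* and *MTHFD2L* fall outside this rule and were named after their values were seen. Probe positions and sequences are those of the array annotation (GRCh37) and the scanner files, and promoters those of RefSeq (GRCh38.p14). Figures were drawn with matplotlib 3.10.9 (Python 3.11.15, pandas 2.3.3).

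Same-numbered replicates deviated together (r above 0.1 in all 3 pairs) for OXA in HT29 (0.12 to 0.244) and for adding Curcumin in HTOXAR3 (0.109 to 0.197), where each pair shared a slide, and not elsewhere. Neither the labels nor the methods describe a pairing. Alternatives were a normexp offset of 50, the mean of all probes, the processed intensity scaled at the 75th percentile, Benjamini-Hochberg adjustment, dim probes left out, slide or replicate as a block, only the groups compared, each array left out, and, chosen after seeing the data, the other probe of a name.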

Additional observations from a re-analysis of the deposited data

Results flagged for a closer look

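Among the 8 genes and those of the 61 well above background on every array compared, 6 results stood out because the change in HTOXAR3 minus the change in HT29 was itself called by limma with BY adjustment. For *SLC19A1* it was 3.88 for OXA, 2.16 for OXA plus Curcumin and -1.72 for adding Curcumin, the last not called with the probe in the coding sequence. *DTYMK* differed by 0.81 (SE 0.08) for OXA, with levels of 15.97 untreated and 15.06 after OXA in HT29 and of 15.42 and 15.33 in HTOXAR3. *CDA* differed by -0.87 (SE 0.11) for OXA plus Curcumin, rising from 7.75 to 9.46 in HT29 and from 8.67 to 9.50 in HTOXAR3, and lost the call in a fit of only the groups compared (adjusted p = 0.108). *ALDH1L1* differed by -1.27 (SE 0.17) for adding Curcumin, at 5.65 after OXA and 5.58 after OXA plus Curcumin in HT29 and at 8.77 and 7.44 in HTOXAR3, and that call remained without HT29 OXA replicate 1 alone, being lost without any 1 of the other 11 arrays and in a fit of only the groups compared (adjusted p = 0.468). All of these also compare 2 doses of OXA.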

How the results depend on the processing

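The 36 called changes of the 8 genes were refitted under every alternative, which gave 558 values. Of these 477 kept the direction and the call, 78 kept the direction and lost the call, and 3 changed sign, none of them called. The 3 were all *DPYD* read by its other probe, which was not well above background on 7 of the 18 arrays, 0.21 after OXA in HTOXAR3 and, after OXA plus Curcumin, 0.077 in HT29 and 0.050 in HTOXAR3. The 44 uncalled changes gave 786 values, of which 5 were called and 49 changed sign without a call. *TYMS*, *TYMP* and *TK1* have 1 probe each, so under the other probe of a name they kept the same probe. Their values there are counted although this alternative could not test them.

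Fitting only the groups compared, with fewer arrays by construction, left 0 of the 8 genes called between the untreated lines, 2 after OXA in HT29, 1 after OXA in HTOXAR3, 3 after OXA plus Curcumin in either line, 0 on adding Curcumin in either line and 0 for the difference in adding Curcumin. That last count was also 0 with the other probe. The same fit called 10, 4, 1, 13, 10, 0, 2, 1, 0 and 0 of the 61 listed genes in the 10 comparisons, in the order basal, OXA, OXA plus Curcumin and adding Curcumin (HT29 before HTOXAR3) and the 3 differences, and 3.58%, 3.85%, 1.73%, 5.89%, 8.43%, 0.0497%, 0.718%, 0.613%, 0.243% and 0.0138% of all gene names in that order. Benjamini-Hochberg adjustment called 13 of the 61 after OXA in HTOXAR3 and 6, 7 and 3 in the 3 differences (16.6%, 3.01%, 3.45% and 0.895% of all names), and slide as a block called 5 after OXA in HTOXAR3 (10.4% of all names). The counts in the 3 differences lay between 0 and 3 under the other alternatives. Leaving out each array gave 4 to 6 of the 61 after OXA in HTOXAR3, 8 to 17 on adding Curcumin in HT29 and 9 to 13 in HTOXAR3, against 8, 18 and 14 with all arrays.

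Leaving out each array gave 2 to 3 called genes after OXA in HTOXAR3 and 0 to 1 for the difference in adding Curcumin. The replicate block left 5 called after OXA plus Curcumin in HTOXAR3 in place of 6, losing *TYMP*, and changed no other call of the 8. Against quantile normalization, the processed signal scaled at the 75th percentile moved the median change of all gene names by over 0.1 in 5 comparisons, to -0.19 for OXA in HTOXAR3, -0.15 and -0.19 for OXA plus Curcumin in HT29 and HTOXAR3, 0.09 for adding Curcumin in HTOXAR3 and -0.10 for the difference in the OXA response, and no called change of the 8 genes changed sign. The cause of the losses was not tested. Among the 7 genes other than *SLC19A1*, *DPYD* had the widest SE, and the changes of *TK1* lay near the fold limit.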
